A study of Mus musculus with 8 samples.

Results

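Inflammasomes are cytosolic complexes in which a sensor protein detects a microbial or damage signal and recruits a caspase, which then cleaves interleukin precursors and opens gasdermin pores in the cell membrane. The 10 mouse genes described here cover the sensors of the NAIP and NLR families (Naip1, Naip2, Naip5, Naip6, Nlrc4 and Nlrp3), the adaptor Pycard, the caspases Casp1 and Casp4 and the pore protein Gsdmd. In mouse macrophages NAIP proteins bind parts of bacterial flagella and secretion systems and pass the signal to NLRC4, and caspases of this group act downstream of endotoxin. Their probes were chosen through the RefSeq transcript of each probe, and 13 of 39429 gene probes matched, for 10 of 20886 named genes. All 13 were well above background on all 8 arrays and entered the tests, in which 25172 probes were kept.

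The arrays measured RNA of macrophages isolated from mice given LPS, the bacterial endotoxin that activates macrophages, in 2 groups of 4 arrays: EP2KO mice, which lack EP2, and wild-type (WT) mice. EP2, encoded by Ptger2, is a receptor for prostaglandin E2 that raises cyclic AMP. Both groups had received LPS, and no array of untreated mice was analysed here. The labels give neither strain, age, body site of the macrophages, LPS dose or time, nor whether the deletion was restricted to a cell type. Whether each array came from a separate mouse is not stated either, and p-values therefore reflect no more than the scatter among these arrays, which may be technical.

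Several features of the whole series bear on the values below. Replicates 1 and 2 of both genotypes lay on slide 1 and replicates 3 and 4 on slide 2, and the first principal component, with 61.1% of the variance, parted the slides. EP2KO filled positions 3 and 4 of either slide and WT positions 1 and 2, and an effect of position cannot be told apart from one of genotype. Between 25554 and 32142 probes per array were well above background, 0 spots were saturated, and the number of arrays limits the precision. All samples are labelled male, yet both Xist probes were well above background on all 8 arrays, and of 5 probes for 4 Y-linked genes, 4 were above background on 0 arrays and 1, for Uty, on 1 array, which goes against that label. Of 10 macrophage markers, 9 were tested, and their summed signal ran from 238 to 319 in EP2KO and from 196 to 311 in WT. Ptger2, the targeted gene, reached 0.358, 0.288, 0.323 and 0.225 in EP2KO 1 to 4 on the scale of relative signal, against 0.981, 1.13, 0.900 and 1.01 in WT 1 to 4. Relative signal here and below is the processed signal divided by that array's 75th percentile over gene spots. Every EP2KO array lay below every WT array, with a log2 difference of -1.77 ± 0.17 (SE, n = 4 each), but the limma adjusted p was 0.0719 without a block for the slide, 0.0280 with it and 0.207 with the replicate number as a block. The sources used here do not place this probe inside or outside the deletion, and it checks the labels only if it lies inside.

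No inflammasome probe passed the test between EP2KO and WT. Of the 13 probes 0 were called at a limma adjusted p of 0.05 without a block, against 0.00795% of all kept probes, 0 with the slide as a block, against 0.0397%, and 0 with the replicate number as a block, against 0%. At an unadjusted p under 0.05 there were 0 member probes without a block, against 1.94% of all probes, 1 with the slide as a block, against 7.15%, and 1 with the replicate block, against 5.3%. That 1 probe with the slide as a block was the first of 2 for Naip1. The fitted log2 difference was within 0.5 of 0 for 12 of the 13 probes, which also holds for 90.4% of all kept probes. Its median over the member probes was -0.094, and over all kept probes -0.024.

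**Figure D1:**
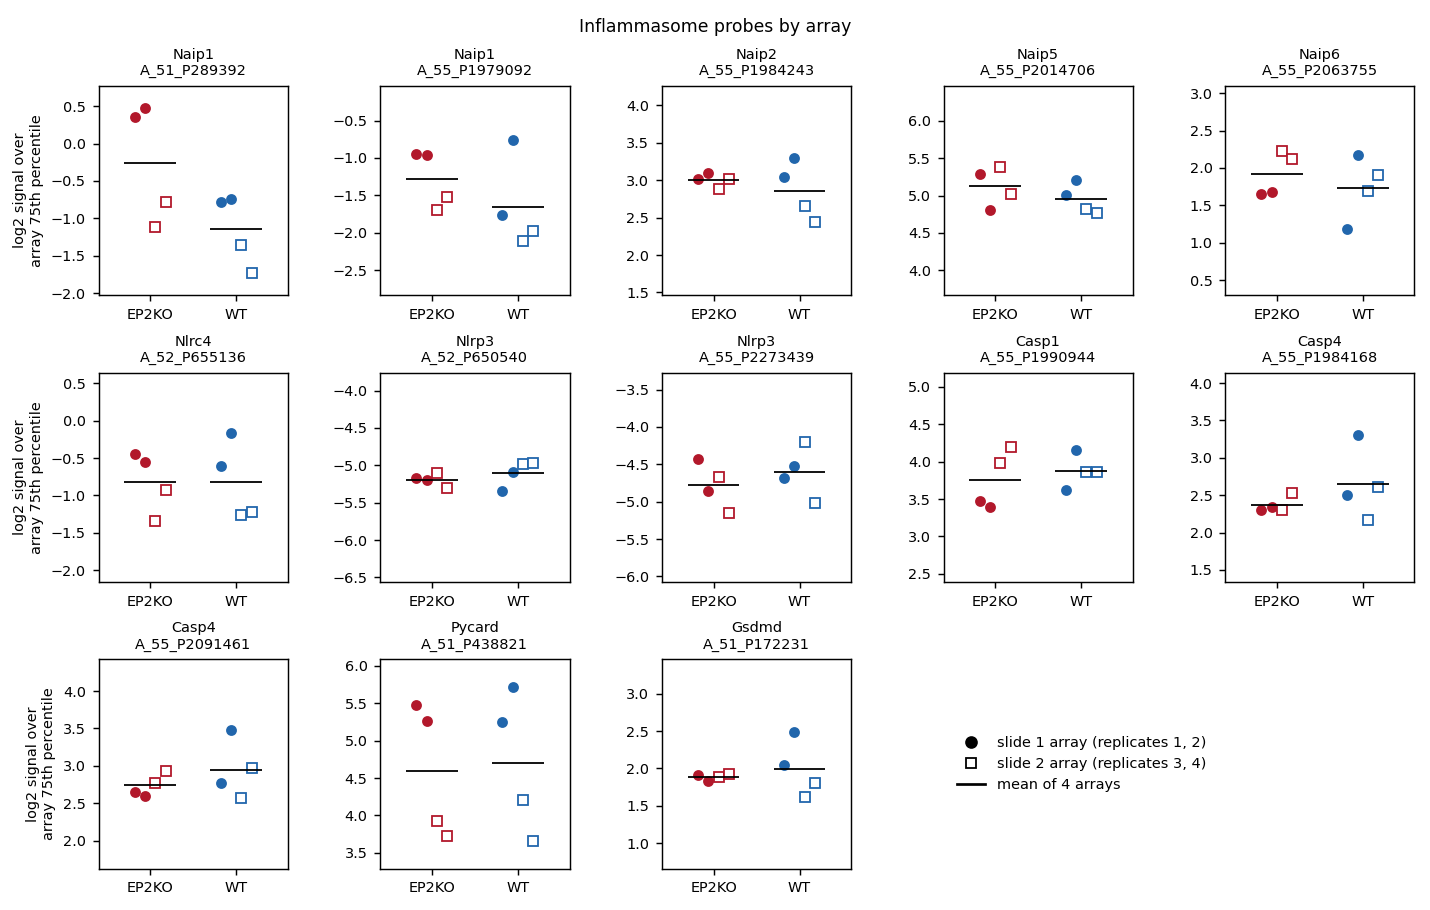
Relative signal of each of the 13 probes by array, as log2 of the signal over the array's 75th percentile (vertical axis), with EP2KO arrays left of WT arrays. Filled circles are slide 1 arrays, open squares slide 2 arrays and lines the mean of 4 arrays; all panels span the same number of log2 units, and Pycard ranges 4.17-fold over the arrays.

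The NAIP genes are the receptors of this pathway: in mouse, NAIP1 binds the needle protein of bacterial secretion systems, NAIP2 the inner rod protein, and NAIP5 and NAIP6 bind flagellin. They stand in 1 cluster on chromosome 13. In RefSeq's order for GRCm38.p6, Naip2, Naip5, Naip6 and Naip1 follow Smn1, with pseudogenes of the same family between them. The genes are close paralogs, and the probe sequences were not used here, so signal of 1 gene on a probe for another is uncertain for all 5 NAIP probes. Upstream sequences were compared as well. Among the 250 bases before each gene's start, the best local alignment of Naip2 and Naip5 held 77 identical bases in 83 columns (92.8%), and that of Naip1 and Naip2 held 100 in 148 (67.6%). Alignments with Naip6 covered only 26 to 30 columns. The 120 bases directly before each start are printed below from RefSeq (GRCm38.p6, minus strand, 5′ to 3′) because they show which of these windows share sequence. Capitals mark runs of at least 8 bases found in Naip1, Naip2 and Naip5 alike.
Naip1 (chr13:100452865-100452984): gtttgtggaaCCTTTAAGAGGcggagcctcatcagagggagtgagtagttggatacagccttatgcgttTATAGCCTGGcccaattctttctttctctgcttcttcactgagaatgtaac
Naip2 (chr13:100202123-100202242): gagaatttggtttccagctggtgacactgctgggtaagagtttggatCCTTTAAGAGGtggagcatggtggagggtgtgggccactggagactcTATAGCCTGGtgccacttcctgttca
Naip5 (chr13:100247337-100247456): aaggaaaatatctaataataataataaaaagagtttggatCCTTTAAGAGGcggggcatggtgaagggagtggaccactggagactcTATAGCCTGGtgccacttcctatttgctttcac
Naip6 (chr13:100316617-100316736): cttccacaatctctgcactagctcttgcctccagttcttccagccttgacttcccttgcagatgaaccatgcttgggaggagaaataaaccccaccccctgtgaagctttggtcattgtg
The runs CCTTTAAGAGG and TATAGCCTGG, 11 and 10 bases long, lie in the same order in Naip1, Naip2 and Naip5, and the Naip6 window holds neither. Each window lies before 1 annotated start per gene, the first listed, so what is shared depends on where that start is annotated. No chance level was computed for the alignments. The sequences are a description, and no array value measures their activity.

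Naip1 had the largest fitted genotype difference of the members. On the probe A_51_P289392 its relative signal was 1.28, 1.39, 0.463 and 0.583 in EP2KO 1 to 4, against 0.584, 0.598, 0.392 and 0.302 in WT 1 to 4. On each slide both EP2KO arrays lay above both WT arrays, but both EP2KO arrays of slide 2 lay below both WT arrays of slide 1, so the genotypes overlapped over the 8 arrays. The log2 difference was 0.88 ± 0.42 (SE, n = 4 each), a 1.84-fold higher fitted signal with a 95% interval of the log2 difference from -0.086 to 1.85. With the slide as a block the SE was 0.17 and the interval 0.49 to 1.27, at a limma adjusted p of 0.199 (unadjusted 0.00099), which misses the threshold. With the replicate number as a block the interval was 0.38 to 1.39 and the adjusted p 0.641. The difference was 1.17 on slide 1 and 0.59 on slide 2. Among the members this was the only probe with EP2KO above WT on both slides without overlap, an order that 2.87% of all kept probes share.

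The other Naip1 probe, A_55_P1979092, did not repeat that order on slide 1. It gave 0.517, 0.513, 0.308 and 0.347 in EP2KO 1 to 4, against 0.295, 0.589, 0.233 and 0.255 in WT 1 to 4. WT 2 was the highest of the 8 arrays, and on slide 2 both EP2KO arrays lay above both WT arrays. The log2 difference was 0.37 ± 0.33 (SE, n = 4 each; adjusted p = 0.863 in the slide-blocked fit), and 0.66 without WT 2, 0.21 without WT 3 and 0.15 after normexp background correction. In several marker lists most genes leaned to 1 genotype, but 0 genes of any list were called without a block or with the slide as a block. Of all kept probes 43.5% had a higher mean in EP2KO. Median log2 differences were -0.41 for B cell, -0.42 for dendritic cell, -1.15 for fibroblast and mesothelium and -1.41 for intestinal epithelium markers. That of fibroblast and mesothelium markers was 1.01 on slide 1 and -3.67 on slide 2. For large resident peritoneal macrophages, of 12 such genes, all tested, 11 had a higher mean in EP2KO, 0 passed the test without a block or with the slide as a block, and their median log2 difference was 1.36 (1.66 on slide 1 and 0.84 on slide 2). Their summed relative signal ran from 83.2 to 329 in EP2KO and from 46.5 to 256 in WT. Of mast cell and eosinophil markers 7 of 10 were tested (Tpsab1, Ms4a2 and Epx were not), 6 had a higher mean in EP2KO and 0 were called, with a median of 1.61 (0.81 on slide 1 and 2.41 on slide 2) and sums of 8.73 to 35.9 in EP2KO and 1.88 to 26.6 in WT. Of T and NK cell markers 8 of 9 were tested (Trac was not), 0 had a higher mean in EP2KO and 0 were called, with a median of -0.77 and sums of 3.97 to 5.22 in EP2KO and 3.69 to 9.69 in WT. In the slide-blocked limma fit 7.15% of all kept probes had an unadjusted p under 0.05. So had 8 of the 12 large resident peritoneal macrophage genes and 5 of 7 mast cell and eosinophil markers. It also held for 7 of 8 T and NK cell, 3 of 6 intestinal epithelium and 1 of 6 B cell markers. Of dendritic cell markers it held for 1 of 6, and of fibroblast and mesothelium markers for 0 of 10. The part of these cell types in the Naip1 values was not tested. In bulk RNA, fewer cells of a type and less RNA per cell cannot be told apart.

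Naip2, Naip5 and Naip6 had fitted differences within 0.2 of 0. Naip2 gave 8.08, 8.54, 7.39 and 8.11 in EP2KO 1 to 4, against 8.28, 9.80, 6.27 and 5.41 in WT 1 to 4. The EP2KO arrays stayed close together (8.03 ± 0.47, SD, n = 4), while WT arrays were spread more widely (7.44 ± 1.98, SD, n = 4), high on slide 1 and low on slide 2. Naip5 gave 39.2, 28.0, 41.6 and 32.5 in EP2KO 1 to 4, against 32.1, 36.9, 28.2 and 27.1 in WT 1 to 4. Naip6 gave 3.14, 3.19, 4.66 and 4.34 in EP2KO 1 to 4, against 2.26, 4.49, 3.24 and 3.76 in WT 1 to 4. The genotypes overlapped for all 3 genes over the 8 arrays, and on slide 2 both EP2KO arrays lay above both WT arrays for each. The share of all kept probes with such an order on 1 slide alone was not counted, here or for the other members. An order on 1 slide, from 2 arrays per genotype, can therefore not be called particular to these genes. Over all kept probes the median difference on slide 2 was 0.047. The 9 tested macrophage markers had a median difference of 0.41 on slide 2 and -0.26 on slide 1, so such a shift is not particular to the NAIP genes. The log2 differences of Naip2, Naip5 and Naip6 were 0.15 ± 0.20, 0.18 ± 0.18 and 0.18 ± 0.25 (SE, n = 4 each), with 0.41, 0.41 and 0.37 on slide 2 and -0.12, -0.057 and -0.012 on slide 1. The 95% intervals with the slide as a block were -0.19 to 0.48, -0.22 to 0.57 and -0.33 to 0.69, so a 2-fold difference in either direction lay outside each. With 1 array left out, Naip2 ran from 0.0060 (without WT 4) to 0.29 (without WT 2) and Naip5 from 0.092 (without EP2KO 3) to 0.28 (without EP2KO 2).

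Nlrc4 encodes the partner that NAIP proteins need to assemble an inflammasome. Its relative signal was 0.732, 0.679, 0.393 and 0.525 in EP2KO 1 to 4, against 0.657, 0.892, 0.416 and 0.428 in WT 1 to 4. Values of both genotypes were high on slide 1 and low on slide 2, and overlapped within each slide. The log2 difference was -0.0069 ± 0.31 (SE, n = 4 each), with a 95% interval of -0.35 to 0.34 once the slide was a block. Its sign was positive under quantile normalization (0.042) and median scaling (0.14).

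Nlrp3 encodes a sensor of ion loss and membrane damage whose transcription LPS is known to induce. Both of its probes were dim. A_52_P650540 lay between 0.0254 and 0.0290 in EP2KO and between 0.0246 and 0.0318 in WT, and A_55_P2273439 between 0.0282 and 0.0465 in EP2KO and between 0.0309 and 0.0546 in WT. The processed signals behind the first ran from 26.7 to 47.6 intensity units over the 8 arrays. The log2 differences were -0.094 ± 0.13 and -0.17 ± 0.23 (SE, n = 4 each), neither past the threshold. They ran to -0.61 and -0.64 after normexp background correction (adjusted p = 0.968 for both), and that of A_52_P650540 was positive under quantile normalization (0.13) and median scaling (0.050).

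Pycard encodes ASC, the adaptor that joins sensors to caspase-1 and polymerises into specks. It gave 44.8, 38.4, 15.2 and 13.2 in EP2KO 1 to 4, against 37.9, 52.6, 18.4 and 12.6 in WT 1 to 4. The slide 1 arrays of either genotype lay far above the slide 2 arrays, and within each slide the genotypes overlapped. The log2 difference was -0.11 on each slide and -0.11 ± 0.58 over the 8 arrays (SE, n = 4 each). With the slide as a block the 95% interval narrowed from -1.45 to 1.23 to -0.50 to 0.28. Under median scaling the difference was 0.036.

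Casp1 encodes the caspase that matures interleukin-1 beta and interleukin-18. It gave 11.1, 10.5, 15.8 and 18.3 in EP2KO 1 to 4, against 12.3, 17.8, 14.6 and 14.5 in WT 1 to 4. On slide 1 both EP2KO arrays lay below both WT arrays, with a log2 difference of -0.45, and on slide 2 both lay above them, with 0.23. Over the 8 arrays the difference was -0.11 ± 0.22 (SE, n = 4 each), and 0.031 under median scaling.

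Casp4 is the mouse caspase that binds cytosolic LPS, and in RefSeq's order it directly follows Casp1 on chromosome 9. On A_55_P1984168 it gave 4.91, 5.06, 4.94 and 5.77 in EP2KO 1 to 4, against 5.65, 9.92, 4.50 and 6.11 in WT 1 to 4. A_55_P2091461 gave 6.29, 6.07, 6.79 and 7.62 in EP2KO 1 to 4, against 6.83, 11.2, 5.92 and 7.81 in WT 1 to 4. On both probes the EP2KO arrays of slide 1 lay below the WT arrays of slide 1, WT 2 was by far the highest array, and the genotypes overlapped on slide 2. The log2 differences were -0.28 ± 0.24 and -0.21 ± 0.21 (SE, n = 4 each), and -0.060 and -0.030 without WT 2.

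Gsdmd encodes the protein whose cleaved fragment forms the lytic pore. Its probe was spotted 10 times on each array. It gave 3.76, 3.56, 3.70 and 3.80 in EP2KO 1 to 4, against 4.12, 5.64, 3.08 and 3.51 in WT 1 to 4. The EP2KO arrays were close together (3.70 ± 0.11, SD, n = 4) and inside the range of the WT arrays (4.09 ± 1.12, SD, n = 4). The log2 difference was -0.11 ± 0.20 (SE, n = 4 each), with -0.40 on slide 1 and 0.19 on slide 2, and 0.061 without WT 2. Under median scaling it was 0.038.

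**Figure D2:**
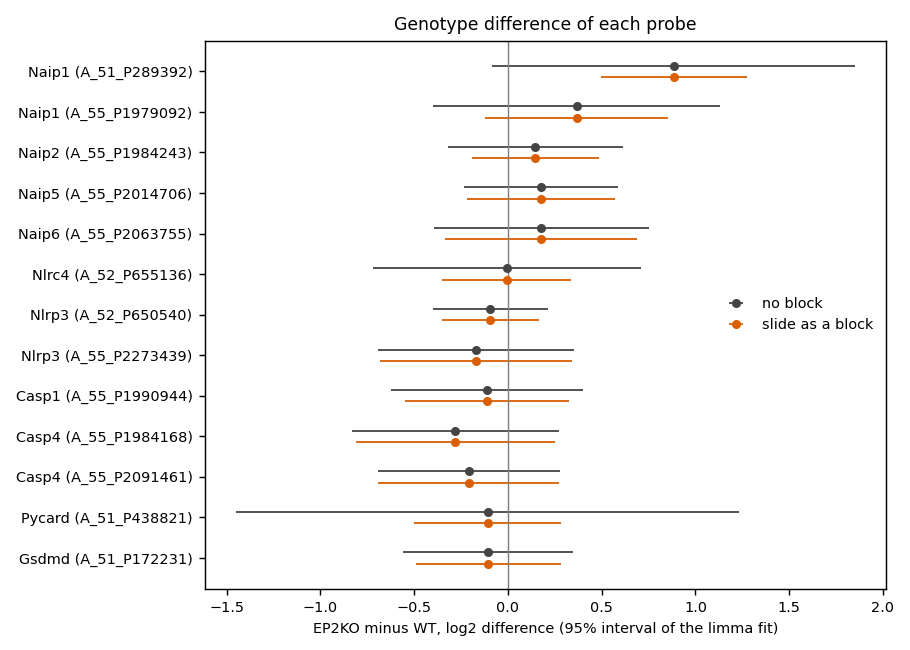
Log2 difference of EP2KO minus WT for each probe (horizontal axis, log2 units) with the 95% interval of the limma fit without a block (grey) and with the slide as a block (orange). The first Naip1 probe (0.88) stands apart from the other 12, all within 0.5 of 0, and of its 2 intervals drawn the one with the slide as a block leaves out 0.

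On the scale of relative signal, WT 2 recurred as the highest array of these genes. It was the highest of the 8 arrays for 7 of the 13 member probes, against 22.9% of all kept probes, and the lowest for 0. The scale divides by each array's 75th percentile, which was smallest on WT 2 (979 intensity units, against 1082 to 1506 on the others). In processed signal before that division, WT 2 was the highest array for Casp4 (A_55_P1984168) and Gsdmd and not for the other member probes. The 4 probes with EP2KO below WT on slide 1, those of Casp1, Casp4 (both probes) and Gsdmd, had their highest slide 1 value on WT 2. That order leaves only WT 1 or WT 2 as the highest slide 1 array, so this is no separate support. The share of all kept probes with that order on slide 1 alone was not counted, so the order cannot be called particular to these probes. Summed markers of neutrophils, short-lived granulocytes, were also highest on WT 2 (129), and ran from 54.9 to 105 in EP2KO and from 53.6 to 129 in WT. Of 10 neutrophil genes 9 were tested, Ly6g was not, and 3 of the 9 had a higher mean in EP2KO. Monocyte markers, of which 6 of 7 were tested (Ly6c2 was not), were highest on WT 2 as well (120), and ran from 37.9 to 88.6 in EP2KO and from 30.8 to 120 in WT, with a median difference of -0.44. Their part in the WT 2 values was not tested.

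Genotype differences of the members changed sign between the slides about as often as those of all kept probes, so this is not particular to them. The difference between slides did not pass the test. For 9 of the 13 probes the EP2KO minus WT difference had opposite signs on slide 2 and slide 1, against 63.7% of all kept probes. Over all kept probes the median difference was -0.091 on slide 1 and 0.047 on slide 2. The interaction is the difference on slide 2 minus that on slide 1. For Casp1 it was 0.68 ± 0.28 and for Naip2 0.53 ± 0.21 log2 units (SE), with limma adjusted p-values of 0.233 and 0.225 (unadjusted 0.0484 and 0.0439). Of the 13 probes 0 were called for the interaction, against 0.0159% of all kept probes, and 2 had an unadjusted p under 0.05, against 21.1%. In a fit of slide 2 alone 0 member probes were called, against 1.26% of all kept probes, and 2 had an unadjusted p under 0.05, against 16.3%. In a fit of slide 1 alone 0 were called, against 0%, and 1 had an unadjusted p under 0.05, against 12%.

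**Figure D3:**
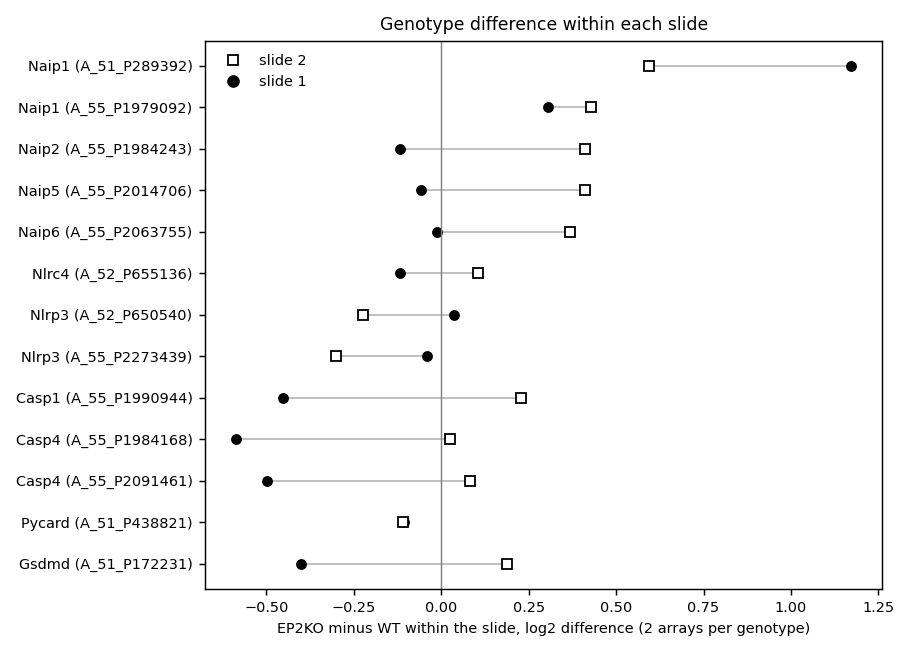
Log2 difference of EP2KO minus WT within slide 2 (open squares) and within slide 1 (filled circles) for each probe, from 2 arrays per genotype on each slide. Both Naip1 probes lie above 0 on both slides, both Pycard values lie at -0.11, and Casp1, Casp4 and Gsdmd lie below 0 on slide 1 and above 0 on slide 2.

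Several members differed between the slides. With genotype in the model, 4 of the 13 probes were called lower on slide 2 than on slide 1, against 17.9% of all kept probes, 0 were called higher, against 25.1%, and 9 were not called. A call in either direction was made for 43.1% of all kept probes, so a share of this size is not particular to these genes. Pycard was lower on slide 2 by a log2 difference of -1.55 ± 0.17 (SE, limma adjusted p = 0.00053), which is 2.93-fold. Its slide 2 arrays, between 12.6 and 18.4, lay wholly below its slide 1 arrays, between 37.9 and 52.6. Naip1 differed by -1.07 ± 0.17 on A_51_P289392 (adjusted p = 0.0023) and by -0.72 ± 0.21 on A_55_P1979092 (adjusted p = 0.0284). The call of the second probe was lost after normexp background correction (adjusted p = 0.223) and without the filter on dim probes (adjusted p = 0.0540). Nlrc4 differed by -0.75 ± 0.15 (adjusted p = 0.0062), and all 4 slide 2 arrays lay below all 4 slide 1 arrays, an absence of overlap between slides that 42.9% of all kept probes share in 1 direction or the other.

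The other NAIP genes did not pass this test. Naip2 differed by -0.36 ± 0.14 (adjusted p = 0.0769, and 0.0159 under quantile normalization, which called it), Naip5 by -0.083 ± 0.17 (adjusted p = 0.718) and Naip6 by 0.32 ± 0.22 (adjusted p = 0.270). Casp1 differed by 0.31 ± 0.19 and Gsdmd by -0.26 ± 0.16, neither past the threshold. Of the cell type lists, large resident peritoneal macrophage markers were called lower on slide 2 for 11 of 12 tested genes, against 17.9% of all kept probes, with a summed relative signal between 46.5 and 102 on slide 2 and between 210 and 329 on slide 1. B cell markers were called lower for 5 of 6 tested genes, with sums of 4.46 to 15.0 on slide 2 and 57.4 to 93.8 on slide 1. Mast cell and eosinophil markers were called lower for 7 of 7 tested genes, with sums of 1.88 to 13.7 on slide 2 and 14.7 to 35.9 on slide 1. T and NK cell markers were called lower for 6 of 8, with sums of 3.69 to 4.38 on slide 2 and 4.94 to 9.69 on slide 1, and monocyte markers for 4 of 6, with sums of 30.8 to 84.1 on slide 2 and 81.6 to 120 on slide 1. Neutrophil markers were called lower for 5 of 9 tested genes and higher for 1, against 25.1% of all kept probes, with sums of 53.6 to 58.7 on slide 2 and 67.7 to 129 on slide 1. Macrophage markers overlapped between the slides, with sums of 196 to 319 on slide 2 and 238 to 311 on slide 1. The part of these cell types in the slide differences was not tested.

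**Figure D4:**
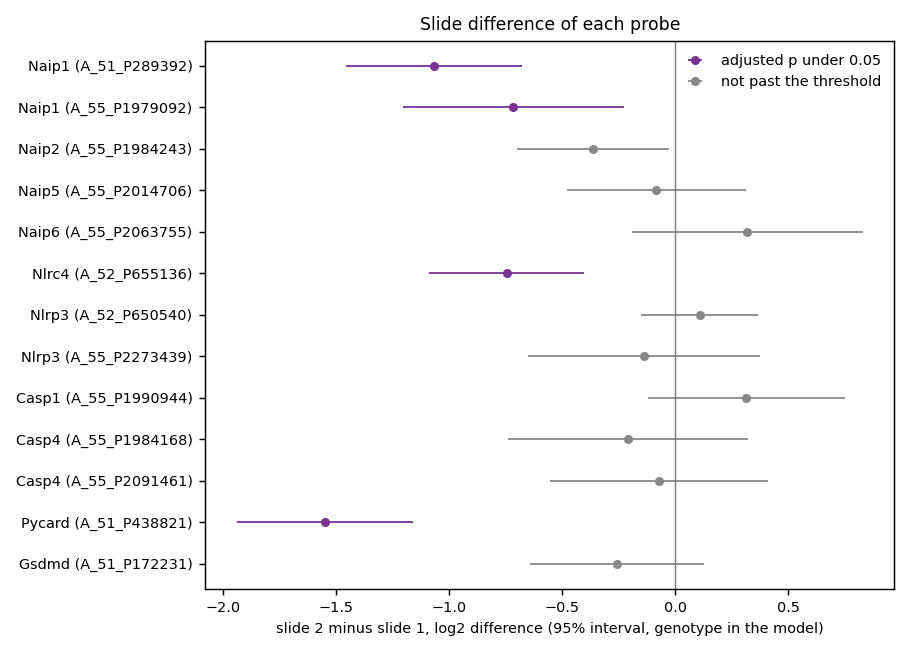
Log2 difference of slide 2 minus slide 1 for each probe with genotype in the model (horizontal axis, log2 units, with the 95% interval of the limma fit). Purple marks the 4 probes past an adjusted p of 0.05, both Naip1 probes, Nlrc4 and Pycard, all lower on slide 2.

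Genes around the inflammasome in the same pathway showed no call between the genotypes either. Each gene is given here by its brightest kept probe. Of 13 other sensors 11 were tested (Nlrp6 and Nlrp12 were not), and 0 were called without a block or with the slide as a block, with a median log2 difference of -0.076 and 1 gene at an unadjusted p under 0.05 in the slide-blocked fit, against 7.15% of all kept probes here and for the lists that follow. Zbp1, a sensor of nucleic acids in the Z conformation, gave 2.63, 2.26, 1.22 and 1.30 in EP2KO 1 to 4, against 3.49, 3.88, 1.69 and 1.43 in WT 1 to 4. Both EP2KO arrays lay below both WT arrays on each slide, an order that 4.05% of all kept probes share, and the log2 difference was -0.45 (SE 0.41 without a block and 0.12 with the slide as a block, adjusted p = 0.379 with it). The differences of Nlrp1b, Nlrc5 and Nlrp1a were -0.50, -0.44 and -0.13, none past the threshold, and that of Nlrp1a was 0.011 under median scaling.

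Of 26 upstream signals and regulators all were tested, 0 were called in either fit, and 10 had a higher mean in EP2KO, with a median difference of -0.026. At an unadjusted p under 0.05 there was 1 in the slide-blocked fit. Cd14, the co-receptor that hands LPS to TLR4, gave 28.6, 28.3, 10.9 and 9.97 in EP2KO 1 to 4, against 28.6, 35.5, 18.6 and 13 in WT 1 to 4, a log2 difference of -0.37 ± 0.47 (SE, n = 4 each). The differences were -0.28 for Panx1, a channel that releases ATP, -0.16 for Ifnar1, a chain of the type I interferon receptor, and 0.34 for the kinase gene Lrrk2. On each slide both EP2KO arrays lay above both WT arrays for Lrrk2, an order that 2.87% of all kept probes share. They lay below them for Cd14, Panx1 and Ifnar1, which 4.05% share. Of the dimmer Ifnar1 probes, A_55_P2454784 kept that order, while A_55_P2438722 overlapped on slide 2, with a difference of 0.060 there. Lrrk2, Cd14, Panx1 and Ifnar1 were named for their p in the slide-blocked fit, which such an order helps to set.

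Of 18 other caspases, gasdermins and death effectors 16 were tested (Gsdma2 and Gsdma3 were not), 0 were called, 2 had an unadjusted p under 0.05 in the slide-blocked fit, and the median difference was -0.041. Casp12, a neighbour of Casp4 on chromosome 9, was dim, with 0.0195, 0.0232, 0.0153 and 0.00976 in EP2KO 1 to 4, against 0.0341, 0.0264, 0.0465 and 0.0493 in WT 1 to 4. All 4 EP2KO arrays lay below all 4 WT arrays, and 1.33% of all kept probes had genotypes without overlap in either direction. Its log2 difference of -1.23 ± 0.32 (SE, n = 4 each) had a limma adjusted p of 0.368 in the slide-blocked fit. The differences of Gsdma, Gsdmc and Birc2 were -0.85, -0.31 and -0.17.

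Of 12 substrates and inhibitors all were tested, 0 were called, 3 had an unadjusted p under 0.05 in the slide-blocked fit, and the median difference was 0.041. Il1b, the precursor that CASP1 cleaves, gave 0.780, 0.729, 0.165 and 0.0972 in EP2KO 1 to 4, against 1.07, 2.07, 0.177 and 0.184 in WT 1 to 4. EP2KO lay below WT on each slide, slide 2 arrays of both genotypes lay below all slide 1 arrays, and the log2 difference was -0.75 ± 1.04 without a block (SE, n = 4 each; adjusted p = 0.563 in the slide-blocked fit). Il1a, an interleukin released on lytic death, gave 0.0857, 0.129, 0.141 and 0.185 in EP2KO 1 to 4, against 0.0509, 0.0163, 0.157 and 0.123 in WT 1 to 4, with a difference of 1.87 on slide 1 and 0.22 on slide 2. Il1r2, a decoy receptor, differed by -1.27 ± 1.07. Serpinb1a, an inhibitor of neutrophil proteases and inflammatory caspases, differed by 0.70 ± 0.39 (SE, n = 4 each).

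**Figure D5:**
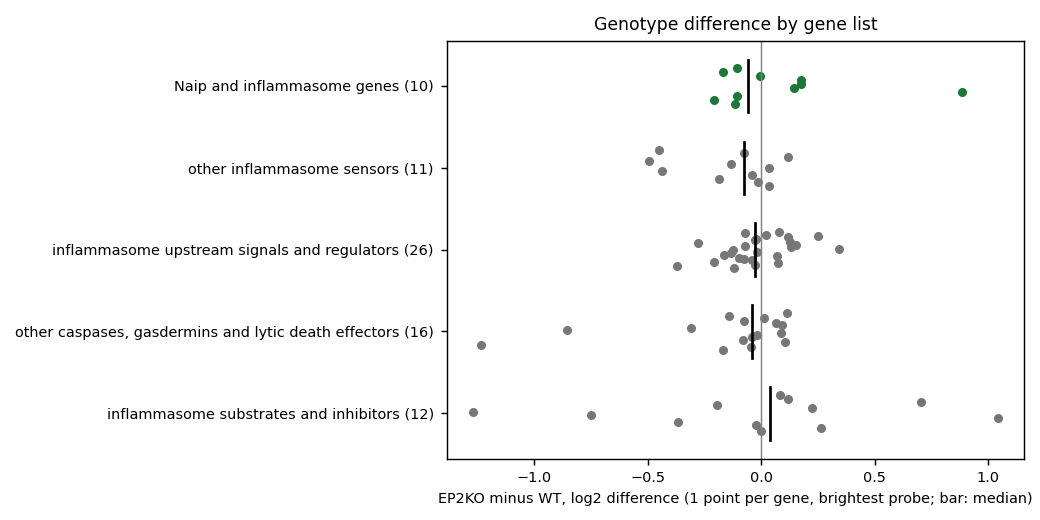
Log2 difference of EP2KO minus WT (horizontal axis) for the 10 member genes, in green, and for the tested genes of 4 lists of related genes, in grey, with 1 point per gene for its brightest probe and a bar at the median. The medians lie between -0.076 and 0.041, and 0 of the genes passed the test.

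Between the slides the same lists held calls in both directions. On slide 2, 1 of the 11 other sensors was called higher and 3 lower, and 4 of the 26 upstream genes higher and 10 lower, against 25.1% and 17.9% of all kept probes. Of the 16 other caspases, gasdermins and death effectors 3 were called higher and 6 lower, and of the 12 substrates and inhibitors 5 higher and 6 lower. Il1b was lower on slide 2 by a log2 difference of -2.81 ± 0.26 (SE, limma adjusted p = 0.0003). Guanylate-binding proteins are interferon-induced GTPases that coat LPS and bacteria and help CASP4 reach it. The 4 Gbp genes on the upstream list were lower on slide 2: Gbp2 by -1.86, Gbp3 by -2.18, Gbp5 by -1.68 and Gbp7 by -1.81, each called. These 4 were singled out after their slide values had been seen.

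Over the 8 arrays the genes with the pattern most like each member were found by the root mean square difference of log2 values centred on each probe's mean, among 14473 named genes. For Naip1 they included 9130008F23Rik (0.223) and Afap1l1 (0.228), against a spread of Naip1 itself of 0.720. For Pycard they were Tns4 (0.133), Vgll4 (0.134) and Ccnd3 (0.154), against 0.801, and for Nlrc4 Pxmp4 (0.073), Kdm2b (0.082) and Zfp959 (0.085), against 0.408. The nearest to Naip2 was Rpl27 (0.059), to Naip5 Rack1 (0.091), to Naip6 Pisd-ps3 (0.082) and to Casp1 Mfsd6 (0.052). That to Casp4 was Ube2o (0.076), to Gsdmd Sec24c (0.047) and to Nlrp3 Tmod4 (0.120). All these points share the 8 arrays and their slides.

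The 250 bases before 11 annotated starts of 9 member genes were searched on both strands for a pair of motifs of factors active in macrophages. The ETS-type motif AGGAAGTG was found for Naip2, Naip5, Nlrc4 and Pycard, and in 3.14% of all 32851 starts. For Naip2 and Naip5 it lies on the opposite strand just after the second shared run of the sequences above. A link of the motif to any array value was not tested. For Nlrc4 and Pycard the windows are shown with the match in capitals, read on the gene's own strand.
Nlrc4 (chr17:74459109-74459148, minus strand): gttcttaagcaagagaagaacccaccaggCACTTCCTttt
Pycard (chr7:127993889-127993928, minus strand): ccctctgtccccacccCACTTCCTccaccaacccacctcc
The consensus of NF-kB, a factor that LPS activates, was found for Casp4, Nlrp3 and Naip5, and in 7.25% of all starts. For Casp4, whose product binds LPS, matches overlap each other and run on both strands; 1 of them is shown in capitals.
Casp4 (chr9:5308742-5308781, plus strand): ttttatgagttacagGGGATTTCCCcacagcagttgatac
Naip1, Naip6 and Casp1 held neither motif in these windows, which says only that these letters are not there.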

How the data were processed

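Linear spot intensities, background-corrected but unscaled per the file headers, were taken from the 8 deposited scanner files. The headers name Feature Extraction 10.7.1.1 and the submitters' processing notes Agilent Feature Extraction 9.1. Per the labels' protocols 0.5 µg of RNA was labelled with Cy3. The deposited series table repeats the processed intensity (largest log2 difference 0). Gene spots without outlier flags were put on the log2 scale, the array's 75th percentile was subtracted, and spots of 1 probe were averaged. RefSeq transcripts of GRCm38.p6 named the probes, and 11921 of 39429 stayed unnamed. The array design is on another build (mm9), so no probe positions are given.

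A probe entered the fits if every array of 1 genotype or the other flagged it as well above background. The fits used limma 3.58.1 in R 4.3.3 (lmFit, eBayes, two-sided, Benjamini-Hochberg over 25172 probes, threshold 0.05). Differences are EP2KO minus WT, or slide 2 minus slide 1. Slide and replicate number were also fitted as blocks. Deviations from the group means correlated between same-numbered arrays at 0.74, 0.13, 0.55 and 0.43 for numbers 1 to 4. Each was above 0.1, but same-numbered arrays share a slide, and these values do not separate the slide from a pairing. With genotype and slide means taken out, r was -0.39 on slide 1 and -0.098 on slide 2. With 2 arrays per genotype on a slide, each r rests on 1 contrast per genotype. It cannot settle whether same-numbered arrays were paired, and the replicate block is given as an alternative. The fits were tested on simulated data. Members and lists were chosen with earlier results of these data known. Named genes were Ptger2, every member probe, the 4 genes of each pathway list with the smallest unadjusted p in the fit with the slide as a block, marker lists that move with a member, and the genes most like each member; 4 Gbp genes were added after their values had been seen. Normexp was run on the median spot signal. Of the genes most like the members, 1 is not reported here.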

Additional observations from a re-analysis of the deposited data

How the results depend on the processing

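Over 32 other settings, 377 of 413 member values kept their sign and 36 turned it, and 0 passed the test. The median difference of all probes was -0.024, -0.13 after normexp and 0.12 after median scaling. Called probes numbered 2 without a block, 10 with the slide as a block, 5 with it as a random block, 0 with the replicate block, 0 on slide 1 alone and 318 on slide 2 alone; leaving out 1 array gave 0 to 3 without a block (0 without any 1 EP2KO array, WT 1 or WT 3) and 0 to 7 with the slide as a block (0 without WT 3, 4 without WT 1, 5 without WT 2, 7 without EP2KO 1). Ptger2 was called with the slide as a block or as a random block and not with the replicate block (adjusted p = 0.207), which changed no call of the fit without a block for a gene named here. Naip1 (A_51_P289392) ran from 0.64 to 1.16 with 1 array left out, and from 0.80 to 1.02 with the slide as a block besides (adjusted p 0.220 to 0.461).

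All signs that turned belong to values short of the threshold. On slide 1 alone Naip2 was -0.12, Naip5 -0.057, Naip6 -0.012 and Nlrp3 (A_52_P650540) 0.036. On slide 2 alone Nlrc4 was 0.10, Casp1 0.23, Casp4 0.026 and 0.081, and Gsdmd 0.19. Median scaling gave 0.14 for Nlrc4, 0.050 for that Nlrp3 probe, 0.031 for Casp1, 0.036 for Pycard, 0.038 for Gsdmd and 0.011 for Nlrp1a. Quantile normalization gave 0.042 for Nlrc4 and 0.13 for Nlrp3, and array weights 0.079 for Nlrc4 and 0.052 for Pycard. Normexp gave -0.61 and -0.64 for Nlrp3 and 0.15 for Naip1 (A_55_P1979092). With 1 array left out, Naip1 (A_55_P1979092) ran from 0.21 to 0.66, Naip2 from 0.0060 to 0.29, Naip5 from 0.092 to 0.28, and Casp4 from -0.44 to -0.060 and from -0.34 to -0.030. The ranges spanned 0 for Naip6 (-0.0089 to 0.32), Nlrc4 (-0.16 to 0.21), Casp1 (-0.26 to 0.011), Pycard (-0.46 to 0.23), Gsdmd (-0.23 to 0.061) and Nlrp1a (-0.29 to 0.013). With the slide as a block besides they did so for Nlrc4 (-0.11 to 0.10, with 0.037 without EP2KO 2 and 0.054 without EP2KO 3), Nlrp3 on A_55_P2273439 (-0.31 to 0.021), Casp1 (-0.22 to 0.062), Pycard (-0.22 to 0.0017) and Gsdmd (-0.20 to 0.043). Between the slides 10837 probes were called, and 4081 after normexp; for the interaction 4 were called, 0 after normexp, 1 without the filter on dim probes, 8 under median scaling and 15 among probes well above background on all 8 arrays. Nlrp3 (A_55_P2273439) differed between the slides by 0.35 after normexp. Naip1 (A_55_P1979092) lost its slide call after normexp (-0.51) and without the filter on dim probes (adjusted p = 0.0540), and Naip2 gained one under quantile normalization (-0.41, adjusted p = 0.0159). The interaction was -0.20 for Naip1 (A_55_P1979092) after normexp, 0.036 and 0.0029 for Nlrp3 under quantile normalization, and 0.14 after normexp and 0.26 under median scaling for Pycard. The causes of these turns were not tested.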
